A study of Mus musculus with 24 samples.

Results

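The mitochondrial carrier family, Slc25, was described in mouse skeletal muscle of 2 genotypes at rest and after a damaging run. Members were all genes whose annotated symbol starts with Slc25a and whose probe had a detection p under 0.05 on at least 6 of the 24 arrays. Where a symbol had several probes, the one with the highest mean was used. Of 46 such symbols on the array, with 76 probes, 33 were kept, out of 14984 features measured in all. The rule used detection and mean level and no difference between groups.

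Most Slc25 proteins, though not all, are carriers of the inner mitochondrial membrane. They move nucleotides, phosphate, carboxylates, amino acids, cofactors and metal ions between the cytosol and the matrix. In skeletal muscle the ADP/ATP carriers and the phosphate carrier feed oxidative phosphorylation. The carnitine and aspartate-glutamate carriers bring in fatty acyl groups and reducing equivalents. The uncoupling proteins belong to the same protein family under Ucp symbols.

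Arrays were made from the gastrocnemius-soleus complex of female mice aged 5 weeks, 6 in each of 4 groups. The groups were wild type (WT) at rest, WT after running, mice with an α7BX2 integrin transgene (transgenic) at rest, and transgenic after running. α7 integrin binds laminin at the surface of muscle fibres. The run was downhill at 20 degrees and 17 m/min for 40 min, after a 2 min warm-up starting at 10 m/min, and muscle was taken 3 h later. The sources used here do not give the promoter that drives the transgene. Values below are log2 intensities after background correction and quantile normalisation, and each is 1 probe's signal, so levels of different genes are not compared. Differences are log2 differences from limma, with a Benjamini-Hochberg adjusted p over all 14984 features.

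Of 8 genes that define skeletal muscle, 7 were measured, and their mean lay between 13.07 and 13.74 on every array. The arrays' median signals lay between 105.2 and 137.9, with 40.2% to 46.2% of probes detected. The mean of 12 measured lymphocyte markers fell into a low set of 13 arrays, at 5.13 to 5.63, and a high set of 11 arrays, at 7.28 to 10.09. The high set held 3 WT arrays at rest, 2 WT arrays after the run, 2 transgenic arrays at rest and 4 transgenic arrays after the run. The mean of 13 slow fibre genes ranged from 10.27 to 12.36. Both means varied within every group, so each difference below was also fitted with them as covariates. In such bulk tissue, fewer cells of a type and less RNA per cell cannot be told apart.

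Of the 33 members 30 were detected on all 24 arrays. Slc25a30 was detected on 23 arrays, Slc25a23 on 22 and Slc25a27, also known as UCP4, on 20. The left-out symbols numbered 13. Slc25a51 came nearest to the limit, with detection on 5 arrays, followed by Slc25a22, a glutamate carrier, and Slc25a46, each on 4. Slc25a13, the aspartate-glutamate carrier known as citrin, was detected on 1 array, as was Slc25a18. Slc25a2, Slc25a21, Slc25a31, Slc25a40, Slc25a41, Slc25a43, Slc25a48 and Slc25a54 were detected on 0 arrays. The detection count says that the signal did not stand above background, not that the RNA was absent.

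RefSeq promoters were available for 27 of the 33 members. The sequences printed are the 250 bases before the start site in GRCm38.p6, 5′ to 3′ on the gene's strand. The 5 shown are those of 3 members with a called slope on the Ucp1 level, given below, and of the 2 members with the smallest p for the mean genotype effect. Slc25a35 also had such a slope, but no promoter was available for it. Capitals mark the E-box CACGTG, the only motif searched that these 5 held. Slc25a1 lies at chr16:17928220-17928469 on the minus strand, Slc25a5 at chrX:36795347-36795596 on the plus strand, and Slc25a10 at chr11:120491587-120491836 on the plus strand. Slc25a36 lies at chr9:97111042-97111291 and Slc25a42 at chr8:70212282-70212531, both on the minus strand.
Slc25a1 promoter: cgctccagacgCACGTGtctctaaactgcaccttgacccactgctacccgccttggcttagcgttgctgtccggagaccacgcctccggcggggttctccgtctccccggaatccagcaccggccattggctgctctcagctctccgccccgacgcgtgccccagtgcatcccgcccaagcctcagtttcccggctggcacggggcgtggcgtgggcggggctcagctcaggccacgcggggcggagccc
Slc25a5 promoter: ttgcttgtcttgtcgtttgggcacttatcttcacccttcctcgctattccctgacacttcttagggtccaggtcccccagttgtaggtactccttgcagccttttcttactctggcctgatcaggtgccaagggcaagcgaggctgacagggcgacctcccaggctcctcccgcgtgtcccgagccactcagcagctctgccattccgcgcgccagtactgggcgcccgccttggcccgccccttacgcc
Slc25a10 promoter: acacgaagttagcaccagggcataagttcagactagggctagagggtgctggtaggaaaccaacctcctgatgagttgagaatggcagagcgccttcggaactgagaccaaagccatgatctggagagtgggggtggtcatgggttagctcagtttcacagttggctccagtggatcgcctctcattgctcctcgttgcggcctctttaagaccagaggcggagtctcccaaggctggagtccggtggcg
Slc25a36 promoter: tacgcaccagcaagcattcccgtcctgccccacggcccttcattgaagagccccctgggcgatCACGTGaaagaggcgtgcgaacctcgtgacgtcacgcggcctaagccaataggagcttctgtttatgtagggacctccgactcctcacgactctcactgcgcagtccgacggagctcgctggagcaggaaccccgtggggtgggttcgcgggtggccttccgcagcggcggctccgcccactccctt
Slc25a42 promoter: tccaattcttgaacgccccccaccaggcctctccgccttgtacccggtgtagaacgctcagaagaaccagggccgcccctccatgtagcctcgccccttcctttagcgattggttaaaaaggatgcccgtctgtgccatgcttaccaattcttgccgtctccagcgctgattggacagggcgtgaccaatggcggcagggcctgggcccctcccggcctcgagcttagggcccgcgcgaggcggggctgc

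On both strands of these 250 bases 4 motifs were searched, in 34 member promoters including alternative start sites. The E-box stood in 6 of 34 member promoters and in 6.02% of all 32851 mouse promoters. Its members were Slc25a1, Slc25a14 at 2 start sites, Slc25a15, Slc25a33 and Slc25a36, with the match at position -239 from the start site in Slc25a1 and at -187 in Slc25a36. The 2 Slc25a14 windows overlap and hold the same match. The NRF1 core GCGCANGC stood in 2 member promoters, those of Slc25a3 and Slc25a24, and in 8.3% of all. The ERR motif TNAAGGTCA stood in 0 of 34, against 1.14% of all. The SREBP motif TCACNCCAC stood in 0 of 34, against 1.05% of all. No searched motif overlapped another in the promoters printed.

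**Figure D1:**
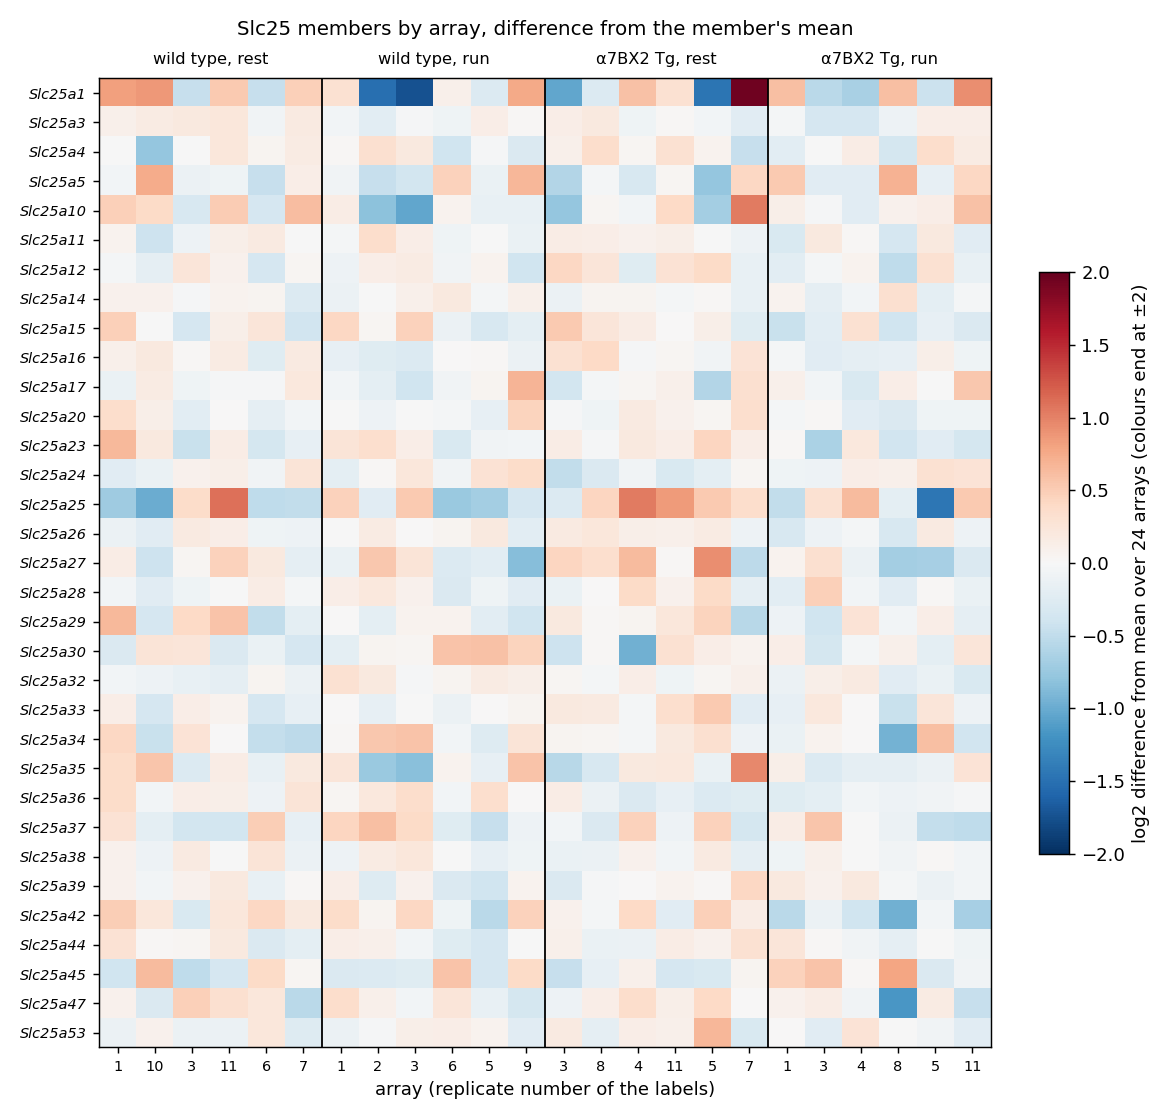
Level of each of the 33 members on each of the 24 arrays, as the log2 difference from the member's own mean over all arrays (colour), with arrays in columns by group and replicate number. Slc25a1 and Slc25a25 vary most within groups. Slc25a1, Slc25a10 and Slc25a35 are low together on WT replicates 2 and 3 after the run and on transgenic replicate 3 at rest.

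Most members differed little between mice. The median within-group SD was 0.29 over the members and 0.30 over all features. The widest member was Slc25a1, the citrate carrier, whose export of citrate feeds cytosolic fatty acid synthesis, with a within-group SD of 0.92. Next came Slc25a25, a calcium-regulated ATP-Mg/phosphate carrier, with 0.66, and Slc25a10, the dicarboxylate carrier, with 0.49. Slc25a32, the folate and FAD carrier, had the lowest SD of those named here, 0.13, and ranged from 6.77 to 7.39 over all arrays. Slc25a3, the phosphate carrier that also brings copper to the matrix, ranged from 12.85 to 13.40.

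Running was followed by no called change in any member. In WT mice 0 of 33 members passed an adjusted p of 0.05 with limma, and 0% of all features did. In transgenic mice 0 of 33 passed, beside 0.00667% of all features. For the exercise effect averaged over genotypes 0 of 33 passed, beside 0.0133%, and for the interaction 0 of 33, beside 0%. At an unadjusted p under 0.05 there were 1 member in WT, 6 in transgenic mice, 2 for the interaction and 3 for the mean effect. These were 3.03%, 18.2%, 6.06% and 9.09% of members, beside 2.15%, 4.76%, 2.35% and 3.98% of all features at the same unadjusted threshold. The median difference after the run was 0.01 over the members in WT, beside 0.01 over all features, and -0.12 in transgenic mice, beside -0.02. In transgenic mice 22 of 33 members were lower after the run and 11 higher, while in WT 16 were lower and 17 higher. The transgenic median was -0.09 without transgenic replicate 8 after the run, the array with the highest lymphocyte mean, 10.09. Over all fits that left out 1 array it ranged from -0.16 to -0.09. The 2 exercise comparisons had the same sign in 13 of 33 members, and the median interaction was -0.12, beside -0.02 over all features.

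Marker lists of other cell types and of slow fibres differed in the same contrasts. In transgenic mice all 12 lymphocyte markers were higher after the run, with a median difference of 1.24, and in WT all 12 were lower, with a median of -0.34. The 7 measured white adipocyte genes were all higher in transgenic mice, median 0.24, and all lower in WT, median -0.33. All 8 measured neutrophil genes were higher in transgenic mice, median 1.42, while in WT 4 were higher and 4 lower, median -0.01. All 11 macrophage genes were higher in transgenic mice, median 0.44, and 8 of 11 were lower in WT, median -0.12. Of the 13 slow fibre genes 11 were lower in transgenic mice, median -0.11, and 12 were higher in WT, median 0.40. None of the genes of these 5 lists was called by limma in either genotype. At an unadjusted p under 0.05 there were 4 neutrophil genes, 1 macrophage gene and 1 white adipocyte gene in transgenic mice, and 0 in WT. With the slow fibre and lymphocyte means as covariates the members' median stayed at -0.11 in transgenic mice, beside -0.01 over all features. The part of these markers in the members' values was not tested further.

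**Figure D2:**
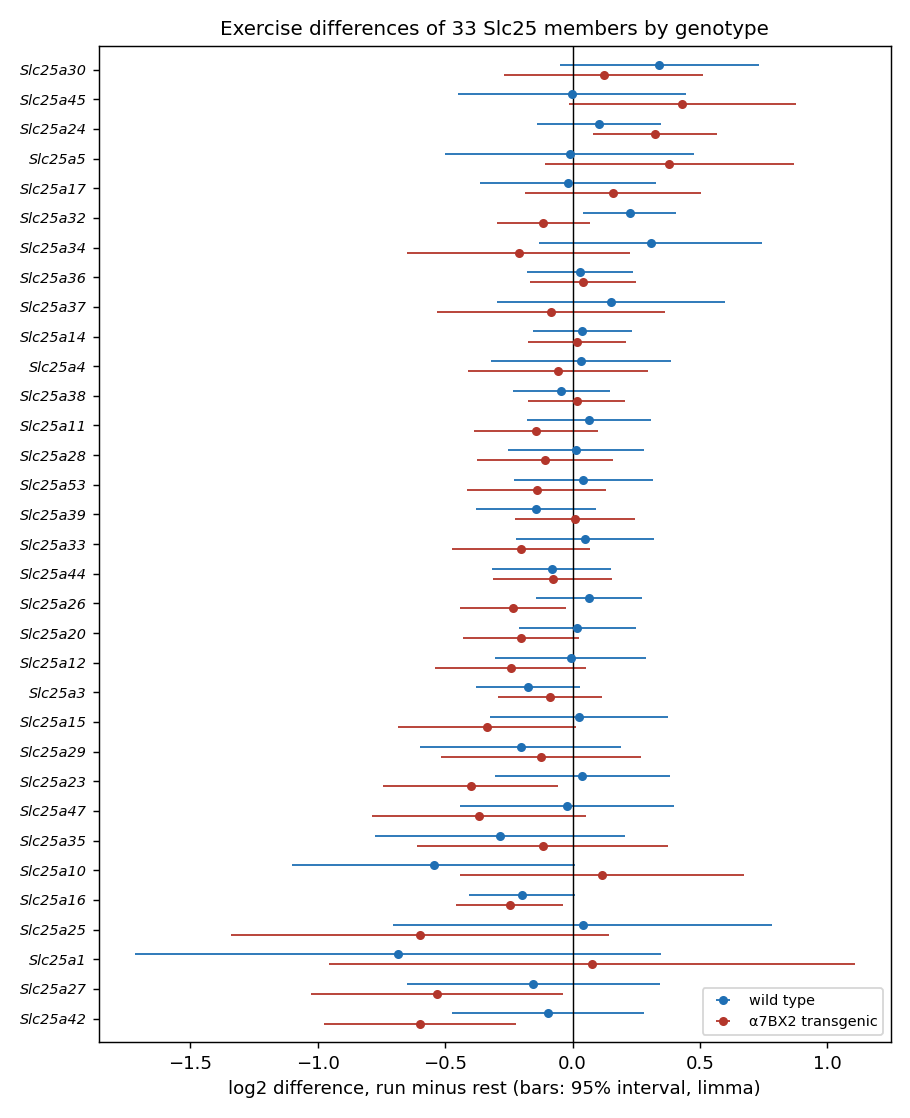
Log2 difference after the run against rest for each of the 33 members in WT (blue) and transgenic mice (red), with 95% intervals from limma, ordered by the mean of both. Slc25a42 has the lowest value in transgenic mice, -0.60, and most intervals include 0.

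Slc25a42, which carries coenzyme A into the matrix in exchange for adenine nucleotides, had the smallest unadjusted p for exercise in transgenic mice. Only 1 of its 4 probes on the array passed the detection filter, so no other probe was compared. On that probe its level was lowest 8.05, median 8.57 and highest 8.84 in WT at rest, and 7.82, 8.56 and 8.82 in WT after the run. In transgenic mice it was 8.12, 8.47 and 8.83 at rest and 7.38, 7.88 and 8.30 after the run. The transgenic mice after the run stood lowest, and their range still overlapped the range at rest. The difference was -0.60 (SE 0.18, n = 6 against 6), with a limma adjusted p of 0.84. In WT it was -0.10 (SE 0.18), and the interaction was -0.50 (SE 0.26, limma adjusted p = 0.926). With the list means as covariates the transgenic difference was -0.65 (SE 0.17), with a limma adjusted p of 0.125. In the 13 lymphocyte-low arrays alone, which hold 2 of the transgenic arrays after the run, it was -0.30 (SE 0.29), and the interaction was -0.23 (SE 0.39). Without transgenic replicate 8 after the run the transgenic difference was -0.50 and the interaction -0.40.

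Slc25a16, whose relative in yeast is linked to coenzyme A, had the smallest p for the mean exercise effect. It was lowest 9.38, median 9.75 and highest 9.81 in WT at rest and 9.34, 9.47 and 9.64 after the run. The transgenic values were 9.54, 9.77 and 10.01 at rest and 9.40, 9.49 and 9.74 after the run. The groups overlapped in each genotype. The mean exercise difference was -0.22 (SE 0.07), with a limma adjusted p of 0.73.

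Slc25a32 was the member with the smallest p in WT. It was 6.90, 6.97 and 7.14 (lowest, median, highest) at rest and 7.06, 7.22 and 7.39 after the run in WT. In transgenic mice it was 7.00, 7.12 and 7.21 at rest and 6.77, 6.95 and 7.26 after the run. WT mice stood higher after the run, with overlap, and transgenic mice did not. The WT difference was 0.22 (SE 0.09, limma adjusted p = 1.00), the interaction -0.34 (SE 0.12, limma adjusted p = 0.926), or -0.12 under median scaling. Of the 3 Slc25a32 probes on the array 1 passed the detection filter.

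The calcium-regulated ATP-Mg/phosphate carriers went different ways, none past the threshold. Slc25a24 was higher after the run in transgenic mice by 0.32 (SE 0.12, limma adjusted p = 0.84), from 6.84, 7.08 and 7.36 at rest to 7.23, 7.44 and 7.63. Its 3 probes did not give 1 direction for the mean exercise effect, with 0.21, 0.10 and -0.24, the last from a probe detected on 6 arrays. Slc25a23 was lower in transgenic mice after the run, by a log2 difference of -0.40 (SE 0.17, limma adjusted p = 0.84). With the mean of its probes the transgenic difference of Slc25a24 was 0.16 (SE 0.10). Slc25a25 had a mean exercise difference of -0.28 (SE 0.25), within the spread of its arrays. It was -0.15 without transgenic replicate 5 after the run, and -0.89 (SE 0.35, limma adjusted p = 0.476) in the arrays at or below the median slow fibre mean.

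No carrier of muscle energy supply had a called difference. On the brightest probes the mean exercise difference was -0.13 (SE 0.07) for Slc25a3 and -0.12 (SE 0.10) for Slc25a12, the aspartate-glutamate carrier aralar. It was -0.09 (SE 0.08) for Slc25a20, the carnitine-acylcarnitine carrier, and -0.04 (SE 0.08) for Slc25a11, the oxoglutarate carrier. For these 4 members the limma adjusted p was 0.990. Dimmer probes of these genes gave other values. The second probe of Slc25a20 had -0.39 (SE 0.33), that of Slc25a12 -0.22 (SE 0.15) and that of Slc25a3 0.02 (SE 0.09), and the other 2 probes of Slc25a11 had -0.39 (SE 0.27) and -0.10 (SE 0.08). In the arrays at or below the median slow fibre mean the brightest probe of Slc25a12 had -0.27 (SE 0.16) and that of Slc25a20 -0.002. With the list means as covariates the value of Slc25a12 was -0.07. Slc25a4, the ADP/ATP carrier of muscle known as ANT1, had -0.01 (SE 0.12, limma adjusted p = 0.995) on a dim probe whose level stood between 5.79 and 6.91 on all arrays. This was the gene's only probe on the array. Its within-group SD was 0.30, beside a median of 0.30 over all features. How well so dim a probe reports the gene was not tested.

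Slc25a5, the ADP/ATP carrier ANT2 of proliferating and many other cells, was 11.72, 12.32 and 12.92 in transgenic mice at rest and 12.27, 12.62 and 13.19 after the run. In WT it was 12.04, 12.43 and 13.23 at rest and 12.04, 12.40 and 13.16 after the run. Its mean exercise difference was 0.18 (SE 0.17, limma adjusted p = 0.990), and -0.012 (SE 0.15) in the lymphocyte-low arrays alone. With the list means and the Ucp1 level as covariates, a setting chosen after seeing the data, it was 0.30 (SE 0.07), with a limma adjusted p of 0.0448. That was the only member called for exercise under any of the settings run.

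Slc25a10 was lower in WT after the run, at 7.48, 8.25 and 8.43 at rest and 6.78, 7.67 and 7.97 after it. The groups overlapped, and the difference was -0.55 (SE 0.27, limma adjusted p = 1.00). With the list means and Ucp1 as covariates it was -0.25 (SE 0.17), and with the replicate numbers as a block it was -0.09. Slc25a26, the S-adenosylmethionine carrier, had an interaction of -0.30 (SE 0.14, limma adjusted p = 0.926), and of -0.12 in the lymphocyte-low arrays alone.

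**Figure D3:**
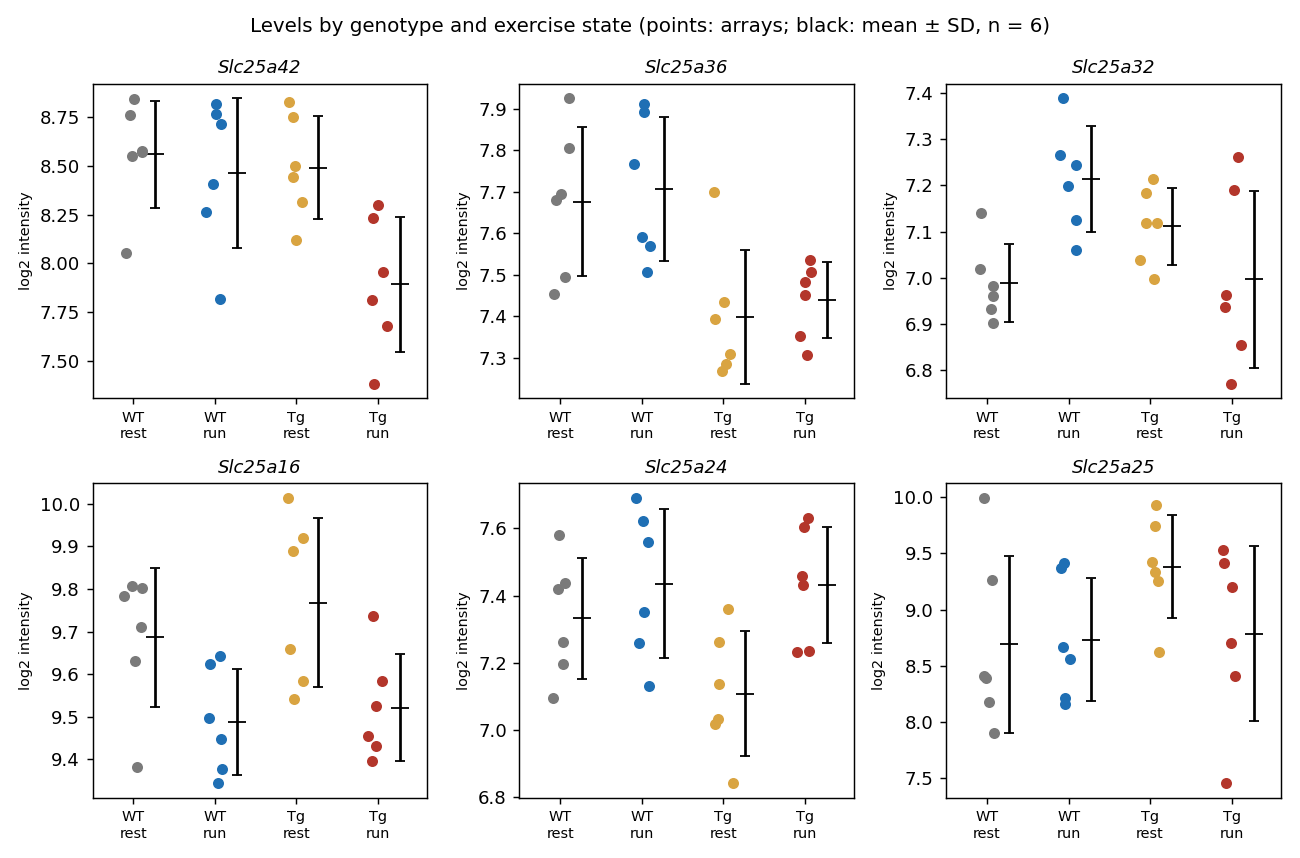
Log2 intensity of 6 members by genotype and exercise state, with a point for each array and the mean ± SD (n = 6) in black. Slc25a42 is lowest in transgenic mice after the run, median 7.88, and Slc25a36 is lower in both transgenic groups than in both WT groups.

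The transgene was accompanied by no called difference in a member at rest, after the run or over both states. At rest 0 of 33 members passed, beside 0.0734% of all features, and after the run 0 of 33, beside 0.0868%. For the mean genotype effect 0 of 33 passed, beside 0.24%. At an unadjusted p under 0.05 there were 1, 3 and 2 members, or 3.03%, 9.09% and 6.06%, beside 2.99%, 3.11% and 3.24% of all features. The members' median differences were 0.07 at rest, -0.04 after the run and -0.01 over both, beside 0.01, -0.01 and 0.00 over all features. At rest 14 members were lower in transgenic mice, and 20 after the run.

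Slc25a36, which carries pyrimidine nucleotides into mitochondria, came nearest to the threshold. In WT it was 7.45, 7.69 and 7.93 (lowest, median, highest) at rest and 7.51, 7.68 and 7.91 after the run. In transgenic mice it was 7.27, 7.35 and 7.70 at rest and 7.31, 7.47 and 7.54 after the run. Both transgenic groups stood lower than both WT groups, with overlap at each state. The difference was -0.28 (SE 0.10) at rest and -0.27 (SE 0.10) after the run. The mean genotype effect was -0.27 (SE 0.07), with a limma adjusted p of 0.183. With the slow fibre and lymphocyte means as covariates it was again -0.27 (SE 0.06), with a limma adjusted p of 0.0412, the only member called then. Leaving out each array singly moved the mean effect between -0.30 and -0.25, without a call. Its other 2 probes gave -0.14 (SE 0.15) and -0.16 (SE 0.12) for the mean genotype effect, the same sign and smaller. With the mean of its probes the difference at rest was -0.11 (SE 0.12). The fellow pyrimidine nucleotide carrier Slc25a33 had a mean genotype effect of 0.12 (SE 0.09, limma adjusted p = 1.00). Slc25a36 holds the E-box in the promoter printed above, as does Slc25a33.

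After the run Slc25a42 differed by -0.57 (SE 0.18, limma adjusted p = 0.924) between transgenic and WT mice, and Slc25a32 by -0.22 (SE 0.09, limma adjusted p = 0.998). The value of Slc25a42 was -0.30 (SE 0.29) in the lymphocyte-low arrays alone and -0.36 with the replicate numbers as a block, and that of Slc25a32 was -0.14 in the lymphocyte-low arrays. Without transgenic replicate 8 after the run the value of Slc25a42 was -0.47. Slc25a25 was 7.90, 8.40 and 10.00 in WT at rest and 8.62, 9.38 and 9.93 in transgenic mice at rest. That difference was 0.69 (SE 0.36, limma adjusted p = 0.999), within the spread of the 12 arrays. With the replicate numbers as a block it was 0.31 (SE 0.32), and in the lymphocyte-low arrays alone 0.13 (SE 0.52). Slc25a24 was lower at rest, by a log2 difference of -0.22 (SE 0.12, limma adjusted p = 0.999), and -0.39 with the block. The blocked value of Slc25a36 at rest was -0.39 (SE 0.13, limma adjusted p = 0.999).

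Levels also varied between mice of the same group. This variation was read as slopes: the log2 change of a member per log2 unit of a marker level, with group, slow fibre mean and lymphocyte mean in 1 model. On the slow fibre mean 5 of 33 members had a called positive slope, 15.2%, beside 27.4% of all features. Another 5 had a called negative slope, beside 20.3%. Both shares lay below those of all features. The negative count was 3 without WT replicate 6 at rest.

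Both mitoferrins, the iron carriers of mitochondria, rose with the slow fibre mean. The slope was 0.61 (SE 0.10, limma adjusted p = 4.9e-05) for Slc25a37, mitoferrin 1, and 0.27 (SE 0.07) for Slc25a28, mitoferrin 2. Slc25a38, the glycine carrier needed for haem synthesis, had 0.18 (SE 0.05). The uncoupling protein relative Slc25a27 had 0.51 (SE 0.13), and Slc25a15, the ornithine carrier of the urea cycle, 0.27 (SE 0.10). The largest limma adjusted p of these 5 was 0.0224, for Slc25a15, whose second, dimmer probe had the opposite slope of -0.32 (SE 0.13). In the lymphocyte-low arrays alone the slope of Slc25a28 was 0.09. Without background correction that of Slc25a27 was 0.19.

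The members that fell with the slow fibre mean were Slc25a1 at -0.72 (SE 0.28), Slc25a10 at -0.48 (SE 0.16), Slc25a5 at -0.48 (SE 0.09), Slc25a30 at -0.39 (SE 0.11) and Slc25a16 at -0.22 (SE 0.06). Their limma adjusted p-values ran from 0.000142 for Slc25a5 to 0.0369 for Slc25a1. The call of Slc25a1 was lost in 10 of the 24 fits that left out 1 array, in which its slope ranged from -0.97 to -0.57. That of Slc25a30, whose level ranged from 4.95 to 6.50, was lost in 1 of them, with slopes from -0.45 to -0.24. Without background correction the slope of Slc25a30 was -0.16. All 7 white adipocyte genes also had negative slopes, 4 of them called, with a median of -0.56. All 11 macrophage genes had negative slopes, 10 of them called, with a median of -0.68. With the white adipocyte mean as a further term, chosen after seeing the data, the slope of Slc25a1 was 0.11 (limma adjusted p = 0.679). The slope of Slc25a10 was then -0.04, and the positive slope of Slc25a38 was 0.10. With the replicate numbers as a block the counts were 1 positive and 0 negative. The counts over all features with the block are not given here, so this loss cannot be called particular to the members. Slc25a37 kept its call with the block, at 0.63 (SE 0.17, limma adjusted p = 0.0216). The slopes of Slc25a27, Slc25a1 and Slc25a10 moved most with the block, to 0.33 (SE 0.21), -0.45 (SE 0.34) and -0.20 (SE 0.21).

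The muscle energy carriers did not share 1 slope. Slc25a11 had 0.15 (SE 0.07), Slc25a3 -0.15 (SE 0.07) and Slc25a20 0.00 (SE 0.08), none called. Probes of 1 gene often went apart here. The second probe of Slc25a20 had a slope of -1.36 (SE 0.19), and 1 of the 3 probes of Slc25a11 had -1.11 (SE 0.17). The second probe of Slc25a3 had 0.23 (SE 0.07) and that of Slc25a12 0.39 (SE 0.09), against -0.06 for its brightest probe. A second probe of Slc25a36 had 0.51 (SE 0.09), against 0.00 for the brightest.

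On the lymphocyte mean 2 of 33 members had a called positive slope, 6.06%, beside 16.6% of all features, and 4 a called negative slope, beside 16.7%. Slc25a45 rose by 0.18 per log2 unit (SE 0.02, limma adjusted p = 5.1e-06) and Slc25a37 by 0.13 (SE 0.03). Slc25a12 and Slc25a29, the carrier of basic amino acids, each had -0.11 (SE 0.02 and 0.04). The negative count was 1 or 2 without any 1 of 4 arrays. Slc25a4, on its dim probe, had -0.08 (SE 0.03) and Slc25a26 -0.06 (SE 0.02), with limma adjusted p-values of 0.0272 and 0.0311. Within the 11 lymphocyte-high arrays alone 0 members had a called slope on the lymphocyte mean by limma in either direction. Of all 14984 features 492 had a positive and 131 a negative one there. That fit held no slow fibre term. The slopes of Slc25a45, Slc25a4 and Slc25a26 were steeper in it, at 0.28, -0.28 and -0.10, without a call, and that of Slc25a29 was 0.02. The values of Slc25a37 and Slc25a12 in these arrays are not given here.

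**Figure D4:**
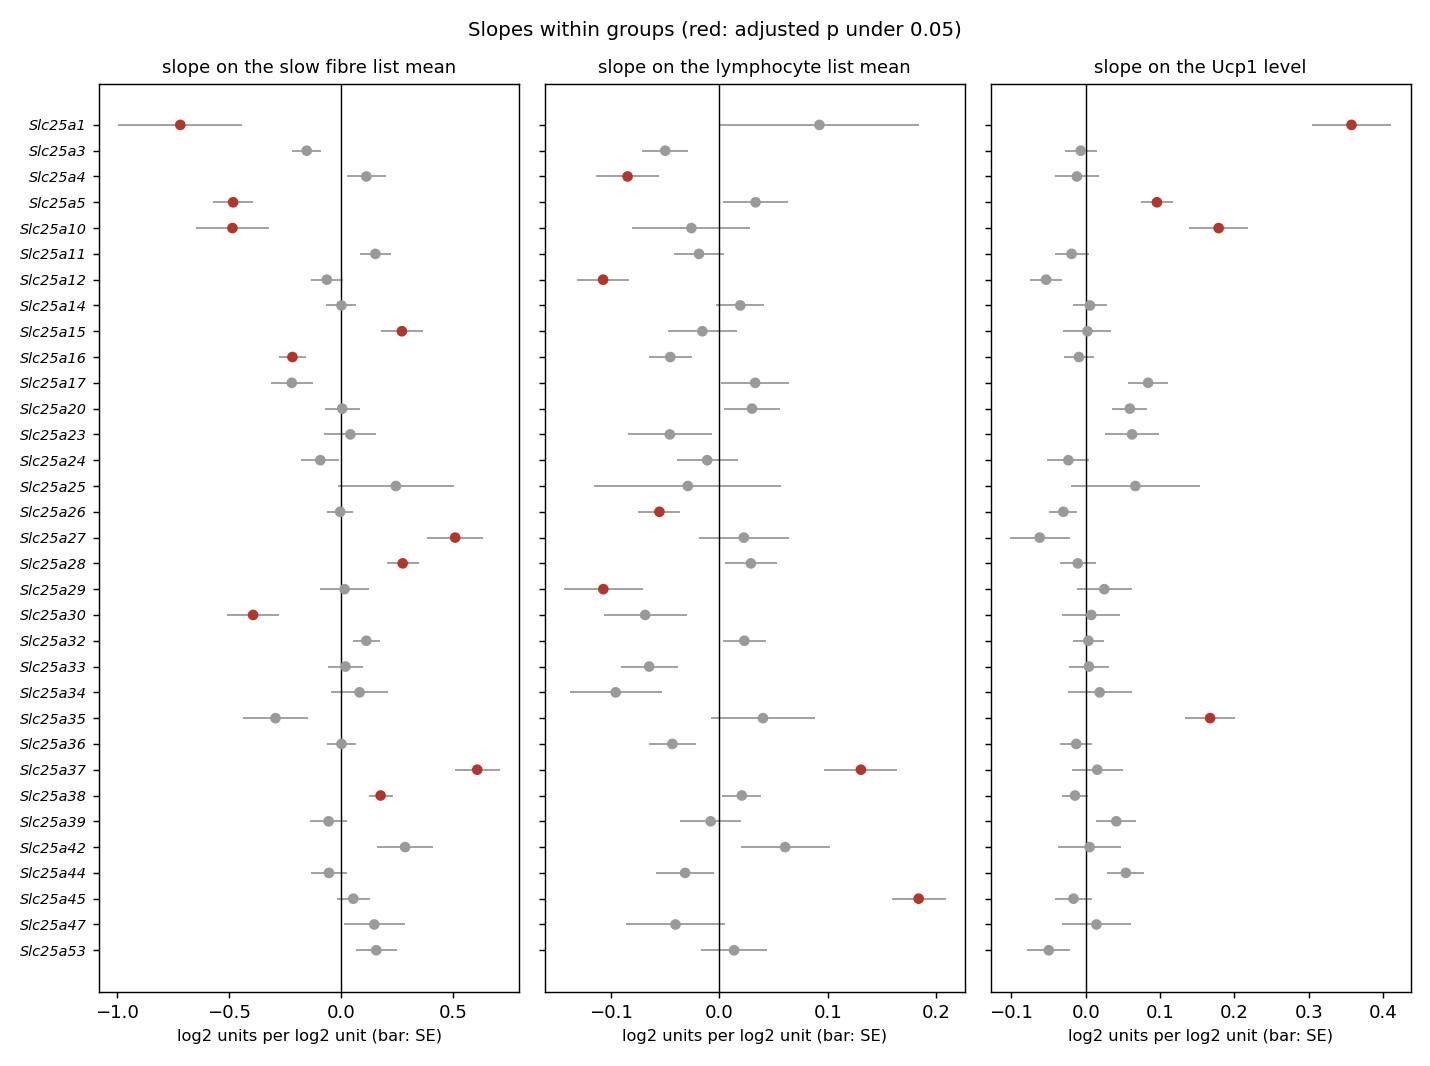
Slope of each of the 33 members on the slow fibre list mean, the lymphocyte list mean and the Ucp1 level, in log2 units per log2 unit with the SE as bars. Red points passed a limma adjusted p of 0.05, and the x axes differ between panels. Slc25a37 has the highest slope on the slow fibre mean and Slc25a1 the highest on Ucp1.

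The family member that varied most was Ucp1, the uncoupling protein of brown fat, which carries protons across the inner membrane to make heat. Its level was lowest 8.80, median 9.93 and highest 12.35 in WT at rest and 4.46, 8.50 and 12.89 in WT after the run. In transgenic mice it was 5.87, 9.02 and 12.79 at rest and 6.46, 9.52 and 11.50 after the run. It was detected on 23 arrays, spanned several log2 units within every group and overlapped between all 4. Its mean exercise difference was -0.61 (SE 0.93, limma adjusted p = 0.990). Cidea, another brown fat gene, ranged from 7.00 to 12.96. Of 5 brown adipocyte genes 3 were measured, and their mean ranged from 11.25 to 13.27 in WT at rest, 8.88 to 13.64 in WT after the run, 9.53 to 13.53 in transgenic mice at rest and 10.05 to 12.67 after the run. The remaining measured gene, Cox8b, stood between 14.87 and 15.24 on all arrays. Elovl3 and Zic1 did not pass the filter.

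Slopes on the Ucp1 level, with group, slow fibre mean and lymphocyte mean in the model, were added after seeing the data. Of the 33 members 4 had a called positive slope, 12.1%, beside 0.994% of all features, and 0 had a called negative slope, beside 0.0534%. At an unadjusted p under 0.05 there were 8 members, 24.2%, beside 10.2% of all features. Slc25a1 rose by 0.36 per log2 unit of Ucp1 (SE 0.05, limma adjusted p = 0.00057), and its second probe by 0.31 (SE 0.06). Slc25a10 rose by 0.18 (SE 0.04, limma adjusted p = 0.0245). Slc25a35, a carrier whose substrate is not well established, rose by 0.17 (SE 0.03, limma adjusted p = 0.0090), and Slc25a5 by 0.10 (SE 0.02, limma adjusted p = 0.0322).

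The array with the lowest Ucp1, WT replicate 3 after the run, had 8.14 for Slc25a1, 6.78 for Slc25a10 and 6.21 for Slc25a35. Each was the lowest of the 24 arrays for that gene. The transgenic array at rest with the highest Ucp1 of its group, 12.79, had 11.83, 8.87 and 8.02, each the highest of the 24. WT replicate 9 after the run had the highest Ucp1 of all arrays, 12.89. Its values were 10.64, 7.67 and 7.62, none the highest for its gene. Slc25a5 ranged from 11.72 to 13.23 and was highest on the WT array at rest with 12.35 for Ucp1.

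White adipocyte genes moved with Ucp1 too: 6 of 7 had positive slopes, 3 of them called, with a median of 0.22. With the white adipocyte mean as a further term 0 of 33 members were called. The slope of Slc25a1 was then 0.18 (SE 0.06), that of Slc25a10 0.06 (SE 0.05), that of Slc25a35 0.04 (SE 0.04) and that of Slc25a5 0.11 (SE 0.03). The count was also 0 in the 13 lymphocyte-low arrays alone, in the 11 lymphocyte-high arrays alone and with the replicate numbers as a block. The blocked slopes were 0.33 for Slc25a1, 0.19 for Slc25a10, 0.15 for Slc25a35 and 0.10 for Slc25a5, so that the calls were lost with little change in the values. In the lymphocyte-high arrays Slc25a10 had 0.01, Slc25a35 0.29 and Slc25a5 0.20. The count was 3 with Cidea in place of Ucp1. It was 1 without WT replicate 1 at rest and 2 without transgenic replicate 11 after the run. Without single arrays the count of called positive slopes over all features ranged from 87 to 157. For the other settings it is not given here, so a loss particular to the members cannot be read from these counts. The part of fat tissue in these samples in the values of Slc25a1, Slc25a5, Slc25a10 and Slc25a35 was not tested.

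**Figure D5:**
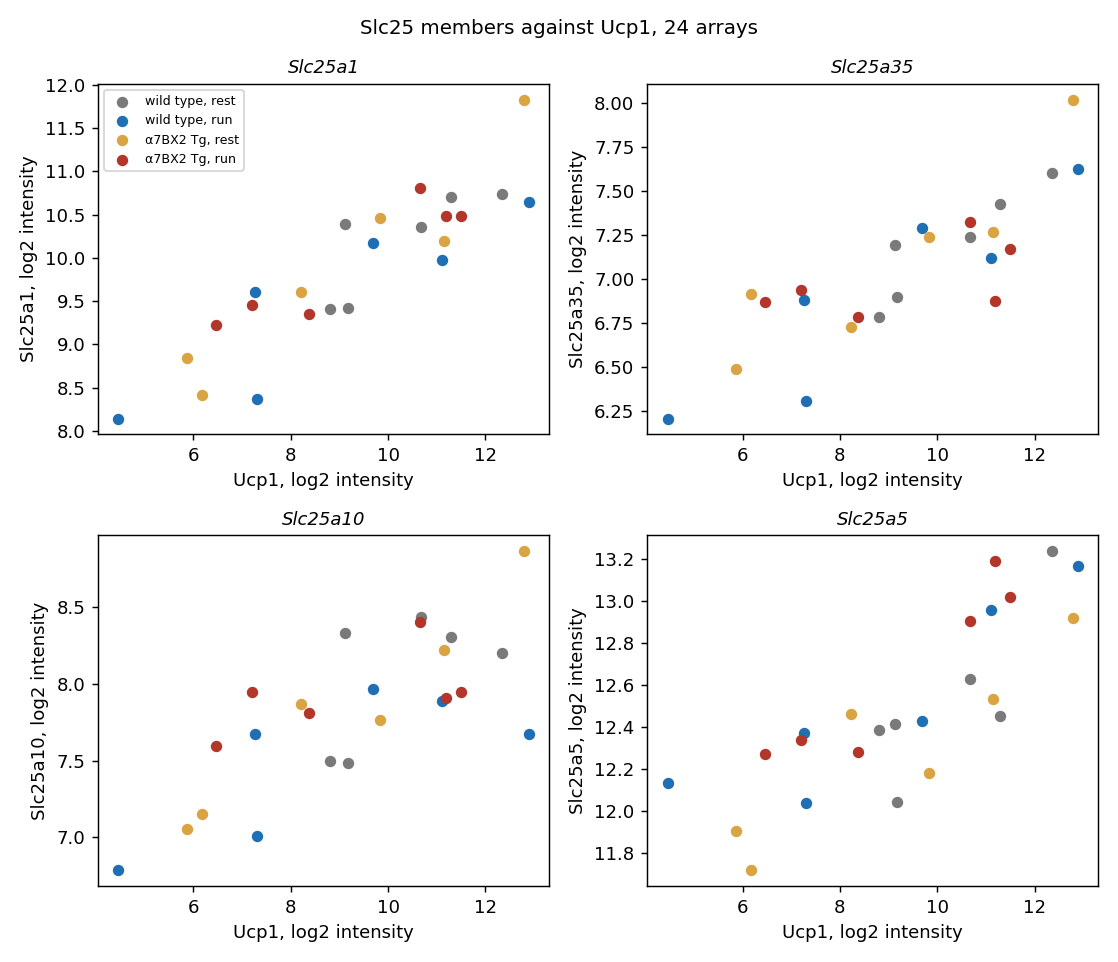
Log2 intensity of Slc25a1, Slc25a35, Slc25a10 and Slc25a5 against that of Ucp1, with a point for each of the 24 arrays coloured by group. The WT array after the run with Ucp1 at 4.46 is lowest for Slc25a1, Slc25a35 and Slc25a10, and all 4 groups spread along the axis.

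Enzymes and channels that work with the carriers were taken from a list of 28, of which 18 were measured. For the mean exercise effect and the mean genotype effect 0 of 18 were called, and 0 had an unadjusted p under 0.05. The smallest p for exercise was that of Gpd2, the mitochondrial glycerol-3-phosphate dehydrogenase, at -0.18 (SE 0.11), then Gpd1, its cytosolic partner, at -0.14 (SE 0.12), and Mdh2, matrix malate dehydrogenase, at -0.07 (SE 0.08). For genotype it was Ppif, cyclophilin D, at -0.08 (SE 0.06), Oat, ornithine aminotransferase, at 0.09 (SE 0.08), and Glud1, glutamate dehydrogenase, at -0.06 (SE 0.05). In transgenic mice 16 of 18 were lower after the run, median -0.14, and in WT 6 of 18, median 0.05.

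On the slow fibre mean 8 of 18 partners had called positive slopes, 44.4%, beside 27.4% of all features, and 3 called negative ones, 16.7%, beside 20.3%. Crat, carnitine acetyltransferase, had 0.59 (SE 0.09), Cpt1b, which makes acylcarnitine in muscle, 0.48 (SE 0.08), and Got2, the matrix aspartate aminotransferase, 0.42 (SE 0.06). Slc25a20 and Slc25a12, the carriers that serve these enzymes, had no called slope on their brightest probes. Of the outer membrane channels Vdac1 had 0.35 (SE 0.06) and Vdac3 -0.47 (SE 0.09). On the Ucp1 level 2 of 18 partners had called slopes, 11.1%, beside 0.994% of all features. They were Acly, which splits the citrate that Slc25a1 exports, at 0.30 (SE 0.06, limma adjusted p = 0.0074), and Gpd1 at 0.15 (SE 0.03, limma adjusted p = 0.0104).

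Of 8 relatives under other symbols 4 were measured: Ucp1, Ucp3, Mtch1 and Mtch2, and Ucp2 was not among them. None was called for exercise or genotype by limma (0 of 4), and 0 had an unadjusted p under 0.05 for either mean effect. Ucp3, the uncoupling protein of muscle, was 6.91, 7.62 and 8.26 in WT at rest and 7.46, 8.16 and 8.55 after the run. In transgenic mice it was 7.52, 8.19 and 8.61 at rest and 7.73, 8.01 and 8.52 after the run. WT mice at rest stood lowest, with overlap. The exercise difference was 0.50 (SE 0.23, limma adjusted p = 1.00) in WT and -0.09 (SE 0.23, limma adjusted p = 0.931) in transgenic mice, and the genotype difference at rest was 0.53 (SE 0.23, limma adjusted p = 0.999). The mean exercise difference was 0.21 (SE 0.17, limma adjusted p = 0.990). Mtch2 had a slope of -1.12 (SE 0.16) on the slow fibre mean and Ucp3 one of -0.51 (SE 0.14), both called.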

How the data were processed

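Total RNA was made into biotinylated cRNA and hybridised to 24 Illumina mouse bead arrays, per the labels' protocols. The deposited table gives an intensity per probe on a linear scale, not normalised, and a deposited detection p-value. A second deposited table holds log2 values. Its steps are unstated, but the submitters' processing notes mention limma 3.20.8 and R 3.1.1. It differed from the values used here by at most 0.0269 and served as an alternative. The sources used here give no bead summary software, slide or scan date.

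Background correction and quantile normalisation used limma's neqc (limma 3.58.1, R 4.3.3, offset 16, detection p-values in place of control probes). Of 45281 probes 21788 were kept (detection p under 0.05 on at least 6 arrays), and the brightest probe per symbol was used. Symbols came from the platform annotation, which gives 34885 probes 1 symbol, 18 several and 10378 none. All 33 members matched RefSeq by Entrez ID, and promoters are those of RefSeq, GRCm38.p6.

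A model with 4 group means was fitted with lmFit and eBayes to all arrays, with 7 contrasts, two-sided. Slopes added the slow fibre and lymphocyte list means. Both fits were run on simulated data whose noise was independent between genes. Variation that genes share between arrays was not simulated, so nothing about these data is drawn from that check. The labels give 6 female mice per group, so each array was taken as 1 mouse.

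Members named were those called, the 3 smallest p per contrast, 7 carriers chosen by role, and up to 5 called members per slope direction. From the partner and relative lists the 3 smallest p in both mean contrasts were named. Other genes and probes were named after their values were seen. Members, lists and tests were chosen with earlier results of these data known. The alternatives were other scalings, filters and probe rules, array weights, covariates, a replicate block and leaving out each array. Shared replicate numbers were checked by the correlation of deviations from group means. At rest all 3 gave over 0.1 (0.347, 0.412 and 0.687), and in the other comparisons at least 1 did not. After the run replicate 1 gave -0.596 between genotypes. The model with group means did not pair arrays. The replicate block was an alternative, run also for the comparisons that failed this check. At rest the shared numbers belong to mice of different genotypes. Replicate 7 lay in the high lymphocyte set in both genotypes, and replicates 3 and 11 in the low set. Whether the correlations reflect pairing of mice was not tested. The number of arrays limits the precision.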

Additional observations from a re-analysis of the deposited data

Results flagged for a closer look

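Each of 24 named members was examined in each of the 4 groups for an array far from the other 5, and 5 of these 96 sets had one. Chance alone gives about 1 in 20 sets. Slc25a42 was low on replicate 3 of wild type at rest, at 8.05, with the next array at 8.55. Slc25a20 was high on replicate 9 of wild type after the run, at 12.38, with the next at 11.93. Slc25a4 was low on replicate 10 of wild type at rest, at 5.79, with the next at 6.55. Slc25a28 was high on replicate 3 of transgenic mice after the run, at 10.82, with the next at 10.36. Slc25a15 was high on replicate 4 of the same group, at 8.25, with the next at 7.77. In the same order the lymphocyte mean of these 5 arrays was 5.36, 9.75, 9.60, 8.83 and 5.13, so that 3 lay in the high set and 2 in the low set.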

How the results depend on the processing

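Over the 7 contrasts the count of called members was 0 under all settings run, except for 1 in the mean genotype effect with the list means as covariates (Slc25a36), and 1 in the mean genotype effect (Slc25a36) and 1 in the mean exercise effect (Slc25a5) with Ucp1 added to them. Medians over members moved by less than the spread between arrays of a group, 0.19. The medians themselves were smaller in size than this, so that limit could not show whether a sign held. Without single arrays the median exercise difference ranged from -0.16 to -0.09 in transgenic mice and from -0.02 to 0.03 in wild type. Replicate numbers as a block (replicate block) reversed Slc25a25 for mean genotype, to -0.11, and changed no call in a contrast. The mean exercise value of Slc25a4, near 0, was 0.013 under median scaling, 0.0063 with list means as covariates and 0.051 in lymphocyte-low arrays, and ranged from -0.083 to 0.026 without single arrays. In lymphocyte-low arrays Slc25a11 was 0.043 and Slc25a5 -0.012 for mean exercise, and Slc25a25 -0.15 for mean genotype.

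Slope counts moved more. These are counts of members, and counts over all features moved too. Without single arrays the latter ranged from 3621 to 4180 (positive) and 2673 to 3135 (negative) on the slow fibre mean. They ranged from 2195 to 2671 and 1994 to 2629 on the lymphocyte mean, and from 87 to 157 and 2 to 14 on Ucp1. For most other settings they are not given here, so a loss particular to the members cannot be read from the counts below. On the slow fibre mean the positive count of 5 was 1 under the replicate block, 2 in lymphocyte-low arrays, 9 with each list mean alone and 2 with the adipocyte mean. The negative count of 5 was 2 under median scaling, 8 with array weights, 0 under the replicate block, 1 in lymphocyte-low arrays, 8 alone, and 3 in lymphocyte-high arrays, with the adipocyte mean or with Ucp1. Without single arrays it ranged from 3 to 7, the lowest without wild type replicate 6 at rest. On the lymphocyte mean the positive count of 2 was 1 under the replicate block, 5 alone and 0 in lymphocyte-high arrays. The negative count of 4 was 1 under median scaling, 7 without background correction, 0 under the block, 9 alone, 0 in lymphocyte-high arrays and 2 with Ucp1, and 1 to 5 without single arrays (1 without wild type replicate 11 at rest, 2 without wild type replicate 6 at rest, transgenic replicate 8 at rest or transgenic replicate 5 after the run). On Ucp1 the positive count of 4 was 2 with array weights, 0 under the block, 0 with the adipocyte mean, 0 in lymphocyte-low and 0 in lymphocyte-high arrays and 7 alone, and 1 to 4 without single arrays (1 without wild type replicate 1 at rest, 2 without transgenic replicate 11 after the run); the negative count of 0 was 6 alone. Reversed slopes were those of Slc25a15 with the mean of probes (-0.034), Slc25a37 on the lymphocyte mean alone (-0.0028), Slc25a29 in lymphocyte-high arrays (0.023) and Slc25a1 with the adipocyte mean (0.11). The block and the array subsets leave fewer degrees of freedom; for the other settings the cause was not tested. Arrays below the widest gap in the slow fibre mean numbered 2, so that planned subset was not run, and the arrays at or below its median were used instead.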

Other observations

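Of the listed mitochondrial enzymes of oxidative metabolism 30 were measured. In transgenic mice 27 of 30 were lower after the run, with a median of -0.12 on the log2 scale, beside -0.02 over all features. In wild type 14 of 30 were lower, median 0.01. None was called by limma in either genotype (0 of 30), and at an unadjusted p under 0.05 there were 3 in transgenic mice and 0 in wild type. On the lymphocyte mean 6 of the 30 had a called negative slope, 20%, beside 16.7% of all features, and 0 a positive one, beside 16.6%. On the slow fibre mean 7 had a called positive slope, 23.3%, beside 27.4%, and 4 a negative one, 13.3%, beside 20.3%.

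Erythroid genes, 3 of 6 measured, were examined because mitoferrin 1 and the glycine carrier serve haem synthesis. Their mean ranged from 9.12 to 9.41 in wild type at rest, 8.78 to 10.25 in wild type after the run, 8.63 to 10.03 in transgenic mice at rest and 8.63 to 10.07 after the run.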
